A study of Mus musculus with 6 samples.

Results

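A set of 10 genes of macrophage sterol and fatty acid handling was followed in RNA from polysomes, which are mRNAs with several ribosomes attached. They were taken by symbol from a list of liver X receptor (LXR) targets and of lipid efflux, uptake and storage genes, and all 10 had a row among the 19233 genes of the deposited table. The BMH-21 group was the mouse macrophage-like line RAW264.7, labelled M2, given BMH-21, which blocks RNA polymerase I, the enzyme of ribosomal RNA synthesis, at 500 nM for 24 h from 24 h after polarization. The DMSO group was the same line in the same M2 state given the solvent. Each group had 3 libraries, and the comparison asked how BMH-21 changed the mRNAs on polysomes. RAW264.7 is a single transformed line of male mouse origin, and the treatment text describes bone marrow-derived macrophages with IL-4 at 20 ng/ml or with interferon gamma and LPS, so the agent used on the line itself is not stated. The values are shares of each library, so the number of cells and the RNA per cell were not measured. A changed amount of an mRNA and a changed part of it on polysomes cannot be told apart without unfractionated RNA.

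LXR alpha (Nr1h3) and LXR beta (Nr1h2) are nuclear receptors activated by oxysterols, which pair with a retinoid X receptor (RXR) and switch on genes that move cholesterol out of the cell. Abca1 and Abcg1 export cholesterol to lipoproteins outside the cell, Mylip (also called Idol) is a ubiquitin ligase that limits lipoprotein uptake, and Pltp transfers phospholipids between lipoproteins. Pparg encodes PPAR gamma, a fatty acid-activated receptor that IL-4 induces in macrophages, Cd36 is a scavenger receptor for oxidised lipoproteins and fatty acids, Plin2 coats lipid droplets, and Lipa is the acid lipase that frees cholesterol from its esters in lysosomes.

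Promoter stretches of 3 genes are shown, those of Plin2 and Cd36, which rose, and that of Abca1, the textbook LXR target, whose groups overlapped. Each is the RefSeq strand of the gene, 5′ to 3′, ending at the base before the RefSeq start (GRCm38.p6, minus strand), and capitals mark the nuclear receptor hexamer AGGTCA read on the other strand (TGACCT), or for Abca1 its GGTCA core (TGACC).
Plin2, chr4:86670060-86670309: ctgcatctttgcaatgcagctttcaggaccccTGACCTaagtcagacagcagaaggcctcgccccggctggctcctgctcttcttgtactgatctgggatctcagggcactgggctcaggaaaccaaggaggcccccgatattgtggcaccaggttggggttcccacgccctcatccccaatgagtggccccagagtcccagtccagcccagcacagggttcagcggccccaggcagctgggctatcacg
Cd36, chr5:17835897-17836146: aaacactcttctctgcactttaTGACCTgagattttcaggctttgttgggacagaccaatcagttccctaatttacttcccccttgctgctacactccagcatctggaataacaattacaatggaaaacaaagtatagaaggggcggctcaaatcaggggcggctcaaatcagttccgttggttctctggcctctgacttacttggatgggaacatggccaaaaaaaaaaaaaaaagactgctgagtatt
Abca1, chr4:53159896-53159995: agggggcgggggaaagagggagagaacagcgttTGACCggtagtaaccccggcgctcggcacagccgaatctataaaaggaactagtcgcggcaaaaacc
Promoter windows were matched for 9 of the 10 genes, as 12 windows, each searched over 250 bases before its RefSeq start on both strands. The Cd36 window shown lies inside the annotated gene, which ends at 17888801, so another annotated start lies further upstream. Which start these cells used was not tested. AGGTCA occurred in 4 of the 12 windows, those of Plin2, Cd36 and Pparg, and in 14% of all 32851 windows of that length. Nr1h3, which also rose, held none, and Pparg held it though its groups overlapped. The shorter GGTCA, which every AGGTCA also contains, occurred in Abca1 as well, in 6 of the 12 windows in all, and in 35.2% of all windows. Neither AGGTCANAGGTCA, the spacing preferred by PPAR with RXR, nor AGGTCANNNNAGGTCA, that preferred by LXR with RXR, had an exact match in these windows. Exact repeats occurred in only 0.0335% and 0.0152% of all windows, so finding none in 12 windows was likely beforehand. Repeats with other letters were not searched, so imperfect ones, also around the marked Abca1 core, would have been missed. A match describes the letters only.

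Low values implied 18780000 to 22560000 reads in BMH-21 libraries and 21620000 to 24080000 in DMSO libraries, and libraries of 1 group correlated at 0.997 or more across genes. Levels are in FPKM, the number of sequenced fragments of a gene divided by the length of its transcript and by the size of the library. All 10 macrophage markers reached 1 FPKM in 3 or more libraries, the minimum for testing, and 6 of them rose and 4 fell, among those that fell Fcgr1 (log2 change -1.06) and Adgre1 (-0.82). Under the 4 other scalings 4 to 7 rose and 2 to 4 fell. Their summed level, 19800 to 21000 FPKM with BMH-21 and 11500 to 12000 FPKM with DMSO, was mostly lysozyme (Lyz2), which averaged 17500 FPKM with BMH-21 and 9470 FPKM with DMSO. Of 8 osteoclast markers 5 were tested and rose, though the groups overlapped for Mmp9 and only 2 rose against DMSO replicate 3 alone, with a summed level of 179 to 185 FPKM with BMH-21 and 60.7 to 71.1 FPKM with DMSO. The largest part of that osteoclast sum was Atp6v0d2, which averaged 134 FPKM with BMH-21 and 32.4 FPKM with DMSO. Log2 changes of these markers were uneven, at 0.17 for Acp5 and 0.27 for Ctsk against 1.70 for Dcstamp and 2.02 for Atp6v0d2. Summed levels of lymphocyte, fibroblast, adipocyte and hepatocyte markers were at most 0.0828 FPKM. Markers of epithelium, 6 in all, summed to 15.5, 11.5 and 15.2 FPKM with BMH-21 and 0, 0.088 and 10.7 FPKM with DMSO, so DMSO replicate 3 stood with the BMH-21 libraries. None of the 10 genes shared this pattern. The part of osteoclast-lineage or macrophage gene levels in these results was not tested.

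Polysome levels of Plin2, Cd36 and Nr1h3 were higher with BMH-21, those of Mylip and Pltp were lower, and those of Nr1h2 and Lipa differed by less than the spread between libraries. Abcg1 was slightly lower, a direction that depended on the scaling. Abca1 and Pparg were under 1 FPKM in all 6 libraries and were not tested with the other genes. Of the 8 genes tested with limma, 3 rose, 3 fell and 2 did not pass at an adjusted p of 0.05, beside 19.9% of all 9748 tested genes called higher and 58.4% called lower. In all, 78.3% of tested genes were called, so 6 called genes of 8 is near the background and is not in itself a result about this list. In 6 of the 8 the groups did not overlap, beside 79.8% of all tested genes. The median log2 change of all tested genes was -0.23, and that of the 8 genes was -0.01.

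**Figure D1:**
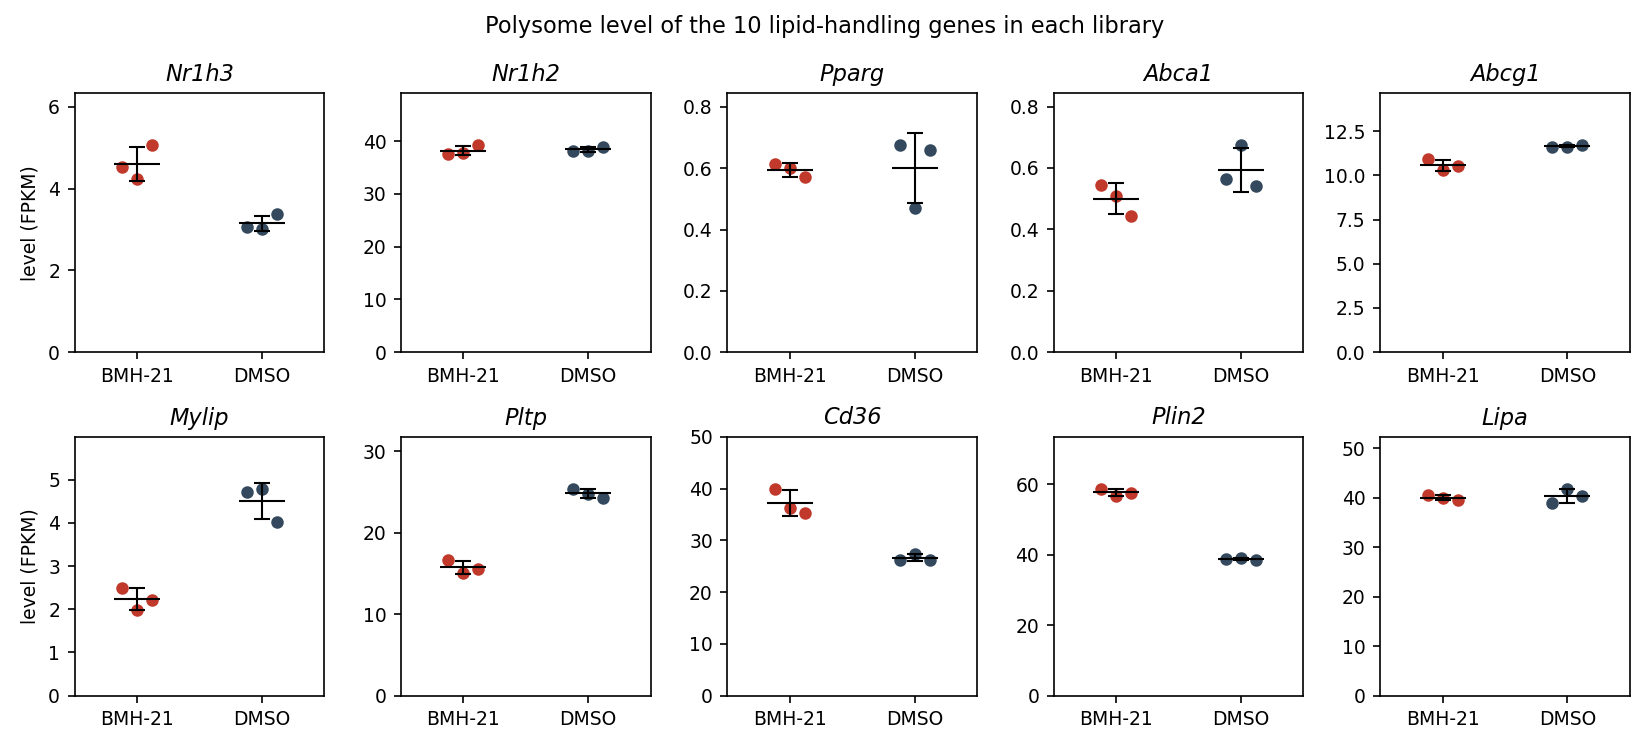
Level in FPKM of the 10 genes in each library, with BMH-21 libraries in red and DMSO libraries in dark blue, each panel starting at 0 with its own scale. Points are libraries, and black lines with bars are the mean and SD of 3; the BMH-21 points of Plin2, Cd36 and Nr1h3 all lie above the DMSO points, and those of Mylip, Pltp and Abcg1 all lie below them.

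Nr1h3 (chromosome 2, 91184061 to 91202834) had 4.53, 4.23 and 5.06 FPKM in the BMH-21 libraries, against 3.05, 3.02 and 3.37 FPKM in the DMSO libraries. All gene positions are those of GENCODE M21 on GRCm38, the mm10 assembly. The lowest BMH-21 value exceeded the highest DMSO value, as in 20.3% of tested genes. The log2 change of FPKM + 1 was 0.43 ± 0.07 (SE, limma adjusted p = 1.57e-04), and the ratio of the means was 1.46. About 169 to 209 reads with BMH-21 and 129 to 151 with DMSO lay behind these values, if each gene is given its longest annotated transcript. Nr1h2 (chromosome 7, 44549616 to 44553951), the more abundant LXR gene, had 37.6, 37.8 and 39.2 FPKM with BMH-21 and 38.1, 38.2 and 38.9 FPKM with DMSO. These groups overlapped, and the log2 change was -0.01 (95% interval -0.09 to 0.08, limma adjusted p = 0.867).

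The alpha receptor was a larger part of the summed LXR level in each BMH-21 library than in any DMSO library. Nr1h3 was 10.7%, 10.1% and 11.5% of the summed FPKM of both genes in the BMH-21 libraries, against 7.43%, 7.32% and 7.98% in the DMSO libraries, and these ranges did not overlap. The log2 ratio of Nr1h3 to Nr1h2 averaged -3.06 ± 0.10 with BMH-21 and -3.61 ± 0.07 with DMSO (SD, n = 3 each), a difference of 0.55 (two-sided exact permutation p = 0.10, the smallest that 3 against 3 libraries allow, adjusted p = 0.40 over 4 such tests). A ratio within a library is not altered by a factor applied to the whole library. Beta remained the larger part in every library, and the sum of both genes was 42.0 to 44.2 FPKM with BMH-21 and 41.1 to 42.3 FPKM with DMSO.

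The third receptor gene, Pparg (chromosome 6, 115360951 to 115490399), was at the low end of detection. It had 0.613, 0.60 and 0.57 FPKM in BMH-21 libraries, against 0.675, 0.47 and 0.659 FPKM in DMSO libraries. The DMSO libraries lay on both sides of the BMH-21 ones (two-sided exact permutation p = 1, adjusted p = 1 over 4 tests). Only about 24 to 29 reads with BMH-21 and 22 to 35 with DMSO lay behind these values, and the DMSO libraries varied by 19% (SD over mean) against 3.8% with BMH-21.

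**Figure D2:**
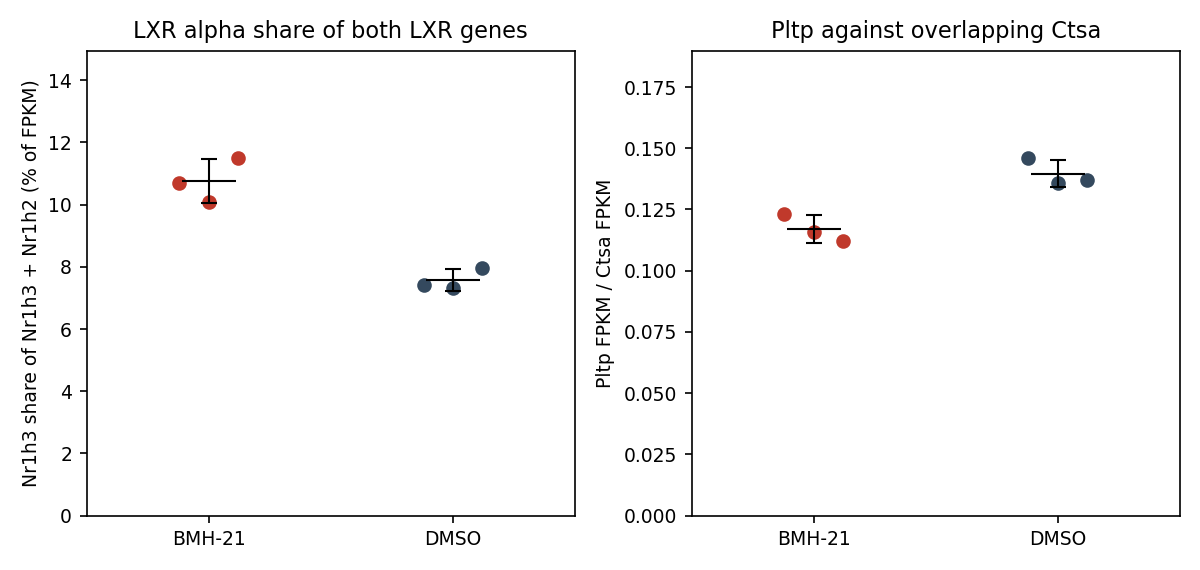
Left, Nr1h3 as a percentage of the summed FPKM of Nr1h3 and Nr1h2; right, Pltp FPKM divided by the FPKM of Ctsa, which overlaps it on the other strand. Points are libraries, lines with bars are the mean and SD of 3, and axes start at 0; the Nr1h3 share is 10.1% to 11.5% with BMH-21 and 7.32% to 7.98% with DMSO.

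The 2 exporters stood at very different levels. Abca1 (chromosome 4, 53030787 to 53159895) had 0.545, 0.509 and 0.445 FPKM with BMH-21, against 0.565, 0.674 and 0.542 FPKM with DMSO. The highest BMH-21 library lay just above the lowest DMSO library, so the groups overlapped (two-sided exact permutation p = 0.20, adjusted p = 0.40 over 4 tests). Because the longest Abca1 transcript is 10262 bases, about 95 to 118 reads with BMH-21 and 126 to 150 with DMSO were behind these low values. In a fit with no filter on low values, the log2 change of FPKM + 1 was -0.09 (95% interval -0.20 to 0.03, limma adjusted p = 0.191). The ratio of the means was 0.842, and the added 1 is larger than the Abca1 level, which shrinks its log2 change.

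Abcg1 (chromosome 17, 31057675 to 31117988) was measured at a far higher level, with 10.9, 10.3 and 10.5 FPKM in BMH-21 libraries and 11.6, 11.6 and 11.7 FPKM in DMSO libraries. All BMH-21 libraries were lower, but the log2 change was only -0.13 ± 0.04 (SE, limma adjusted p = 0.0199), 0.11 above the median of all genes. With median-ratio scaling the change was 0.15, with upper-quartile scaling 0.17 and with quantile normalization 0.12, each called higher. The call was also lost without BMH-21 replicate 2 (adjusted p = 0.0596), BMH-21 replicate 3 (0.0502) or DMSO replicate 3 (0.0661). Abca1 stood at 0.0423 to 0.0499 of the Abcg1 level with BMH-21 and at 0.0462 to 0.0583 with DMSO, ranges that overlapped. The log2 ratio differed by -0.11 between the groups (two-sided exact permutation p = 0.60, adjusted p = 0.80 over 4 tests).

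Mylip (chromosome 13, 45389742 to 45412022) showed the largest relative fall of the list. It had 2.49, 1.99 and 2.22 FPKM with BMH-21, against 4.71, 4.79 and 4.02 FPKM with DMSO. All BMH-21 libraries were below all DMSO libraries, as in 59.5% of tested genes, and the mean level with BMH-21 was 0.495 of that with DMSO. The log2 change of FPKM + 1 was -0.77 ± 0.08 (SE, limma adjusted p = 6.63e-06). It lay 0.54 below the median of all genes, and 11.3% of tested genes had a lower change. The added 1 shrinks it at this low level, and with 0.1 added in its place the change was -0.99.

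Pltp (chromosome 2, 164839518 to 164857711) had 16.6, 15.1 and 15.5 FPKM in BMH-21 libraries, against 25.4, 24.8 and 24.3 FPKM in DMSO libraries. The groups were well apart, with a log2 change of -0.63 ± 0.05 (SE, limma adjusted p = 8.06e-07) and a ratio of means of 0.634. In the annotation Pltp shares 495 exon bases with Ctsa on the opposite strand, and the library kit is not stated to mark the strand, so reads of the 2 genes cannot be told apart there. Ctsa, which encodes the lysosomal protective protein cathepsin A, was far more abundant, at 135, 129 and 138 FPKM with BMH-21 and 174, 182 and 177 FPKM with DMSO, a log2 change of -0.40 ± 0.04 (SE, limma adjusted p = 6.71e-06). The level of Pltp relative to Ctsa was 0.112 to 0.123 with BMH-21 and 0.136 to 0.146 with DMSO, so the ratio was lower in every BMH-21 library than in any DMSO library. How many Pltp reads came from Ctsa was not tested.

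The uptake receptor Cd36 and the droplet protein Plin2 rose. Cd36 (chromosome 5, 17781690 to 17888801) had 40.0, 36.3 and 35.4 FPKM in BMH-21 libraries, against 26.3, 27.4 and 26.3 FPKM in DMSO libraries. Groups did not overlap, and the log2 change was 0.46 ± 0.05 (SE, limma adjusted p = 1.39e-05). BMH-21 replicate 1 was the highest, and the change was 0.41 without it. Plin2 (chromosome 4, 86648386 to 86670060) had 58.7, 56.6 and 57.6 FPKM with BMH-21, against 38.8, 39.1 and 38.6 FPKM with DMSO, the tightest replicates of the rising genes at 1.8% and 0.73% (SD over mean). Its log2 change was 0.56 ± 0.04 (SE, limma adjusted p = 3.19e-07), or 0.79 above the median of all genes, and 94.7% of tested genes had a lower change.

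Lipa (chromosome 19, 34492318 to 34527474), which acts on lipoprotein esters after their uptake, had 40.5, 39.9 and 39.5 FPKM with BMH-21 and 38.9, 41.8 and 40.3 FPKM with DMSO. All BMH-21 values lay within the DMSO range, and the log2 change was -0.01 (95% interval -0.10 to 0.08, limma adjusted p = 0.784).

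With DMSO, Lipa, Plin2 and Nr1h2 stood together at the top, at means of 40.3, 38.8 and 38.4 FPKM, and neighbours in this order overlapped, while Cd36 followed apart from them at 26.7 FPKM. With BMH-21, Plin2 stood alone at the top at a mean of 57.6 FPKM, followed by Lipa at 40.0, and by Nr1h2 at 38.2 and Cd36 at 37.2 FPKM, which overlapped. Pltp and Abcg1 came after Cd36 in both groups. Nr1h3 was above Mylip with BMH-21, at 4.61 and 2.23 FPKM, and below it with DMSO, at 3.15 and 4.51 FPKM. Pparg and Abca1 were last in both, and overlapped with DMSO.

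How the level of a whole library was set moved every change in the list. Median-ratio scaling shifted the median of all genes by 0.24, upper-quartile scaling by 0.26 and quantile normalization by 0.23, while equal column totals moved it by -0.10. Under all 4, Plin2, Cd36 and Nr1h3 stayed higher and called, at 0.44 to 0.87, 0.35 to 0.77 and 0.34 to 0.76, and Mylip and Pltp stayed lower and called, at -0.86 to -0.45 and -0.74 to -0.32. Nr1h2 and Lipa were both called higher with median-ratio scaling, at 0.28 each, and both called lower with equal column totals, at -0.13 each. Higher calls then numbered 6 of 8 with median-ratio scaling, beside 38.6% of all genes, 6 with upper-quartile scaling, beside 40.1%, and 5 with quantile normalization, beside 36.3%; lower calls numbered 2 under each, beside 34.9%, 33.4% and 35.9%. Against DMSO replicate 3 alone, chosen after seeing the data and with the lone library assumed to vary like the BMH-21 ones, the calls of Plin2 (0.57), Cd36 (0.48), Nr1h3 (0.36), Pltp (-0.60) and Mylip (-0.64) were kept and that of Abcg1 (-0.14) was lost.

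**Figure D3:**
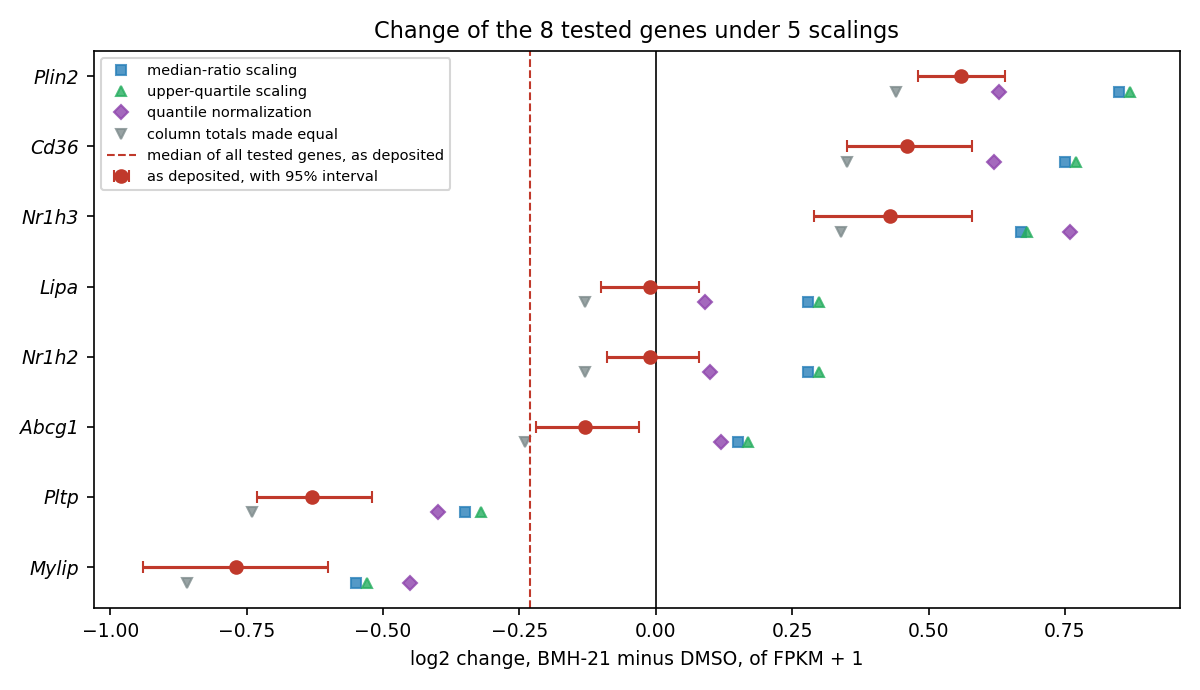
Log2 change of FPKM + 1, BMH-21 minus DMSO, of the 8 tested genes (down the page) as deposited, with the limma 95% interval, and under 4 other scalings. The dashed line at -0.23 is the median of all tested genes as deposited; Plin2, Cd36 and Nr1h3 stay right of 0 and Pltp and Mylip left of it under every scaling, while Nr1h2, Lipa and Abcg1 change side.

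A further 7 lists of neighbouring genes gave the setting. Their counts as deposited stand beside 19.9% higher and 58.4% lower among all tested genes. With median-ratio, upper-quartile and quantile scaling these shares were 38.6%, 40.1% and 36.3% higher and 34.9%, 33.4% and 35.9% lower. With equal column totals, 1390 of 9788 tested genes were higher and 6670 lower. Of 17 tested genes of lipoprotein and fatty acid uptake, 12 rose and 4 fell (median log2 change 0.48), with 11 to 13 higher under the other scalings. The fatty acid carrier Fabp5 averaged 219 ± 3.6 FPKM with BMH-21 and 78.4 ± 4.5 FPKM with DMSO (SD, n = 3 each), a log2 change of 1.47. The other carriers Fabp4 and Fabp3 changed by 1.20 and 0.83, and the scavenger receptor Msr1 by 0.85. Adding 1 to FPKM shrinks the log2 changes of genes at a few FPKM, here and below. With 0.1 added in its place, Fabp4 changed by 1.62, Fabp5 by 1.48 and Nr1h3 by 0.53.

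Other LXR targets did not move as a block, with 6 of 11 tested genes higher and 4 lower (median 0.09), the lower ones being 2 with median-ratio, upper-quartile or quantile scaling. Smpdl3a, a secreted phosphodiesterase, fell to 17.6 ± 0.83 FPKM with BMH-21, against 30.0 ± 0.79 FPKM with DMSO (SD, n = 3 each). The desaturase genes Fads2 and Scd2 and the lipoprotein lipase gene Lpl rose by 0.63, 0.52 and 0.71 on the log2 scale. Other PPAR gamma targets were also split, with 3 of 9 higher and 5 lower (median -0.27). Fabp4, the classic target, averaged 4.52 ± 0.41 FPKM with BMH-21 and 1.40 ± 0.053 FPKM with DMSO (SD, n = 3 each), and the mitochondrial carrier Ucp2 averaged 305 and 167 FPKM. Acadl and Cpt1a, which serve fatty acid oxidation, fell by 1.45 and by 0.94 on the log2 scale.

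Among receptor partners and coregulators, 0 of 16 tested genes rose and 12 fell (median -0.42). With median-ratio, upper-quartile or quantile scaling 3 rose and 8 or 9 fell, and with equal column totals 0 rose and 15 fell. As deposited, the number higher at an unadjusted limma p under 0.05 was also 0, and no other tool was run. Rxrb, which encodes an RXR partner of LXR and PPAR, averaged 24.2 ± 0.40 FPKM with BMH-21 and 39.7 ± 1.7 FPKM with DMSO (SD, n = 3 each). Tbl1x, which encodes a subunit of corepressor complexes, changed by -0.80, and Ppard, the PPAR delta gene, by -0.88. Of 6 tested oxysterol enzymes and binding proteins, 5 fell and 1 rose, the lower ones being 3 with median-ratio or upper-quartile scaling and 1 with quantile normalization. Cyp27a1, which makes an oxysterol ligand of LXR, averaged 6.57 ± 0.23 FPKM with BMH-21 and 13.6 ± 0.93 FPKM with DMSO (SD, n = 3 each), and the lipid transfer protein gene Osbpl8 rose by 1.08. Hsd3b7, a bile acid enzyme, and the binding protein gene Osbpl11 fell by 0.33 and by 0.37; the Hsd3b7 call was lost under the same 3 scalings and the Osbpl11 call with quantile normalization.

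Of 19 tested genes of lipid droplets and neutral lipid turnover, 3 rose and 10 fell (median -0.10). With median-ratio scaling 10 rose and 5 fell, but with equal column totals 3 rose and 12 fell. Hilpda, which restrains droplet lipolysis, averaged 72.0 ± 1.2 FPKM with BMH-21 and 34.6 ± 0.40 FPKM with DMSO (SD, n = 3 each), and the cholesterol ester hydrolase gene Nceh1 and the acyltransferase gene Agpat2 rose by 0.52 and 0.46. Soat2, which esterifies cholesterol, fell by 1.14. Among 17 genes of endolysosomal cholesterol handling, 4 rose and 7 fell (median -0.07). These counts were 9 and 5 with median-ratio scaling, and 3 and 10 with equal column totals. Gramd1a and Stard5, which bind or carry sterol, fell by 0.93 and by 0.64, and the lysosomal membrane genes Scarb2 and Lamp2 by 0.86 and by 0.58.

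**Figure D4:**
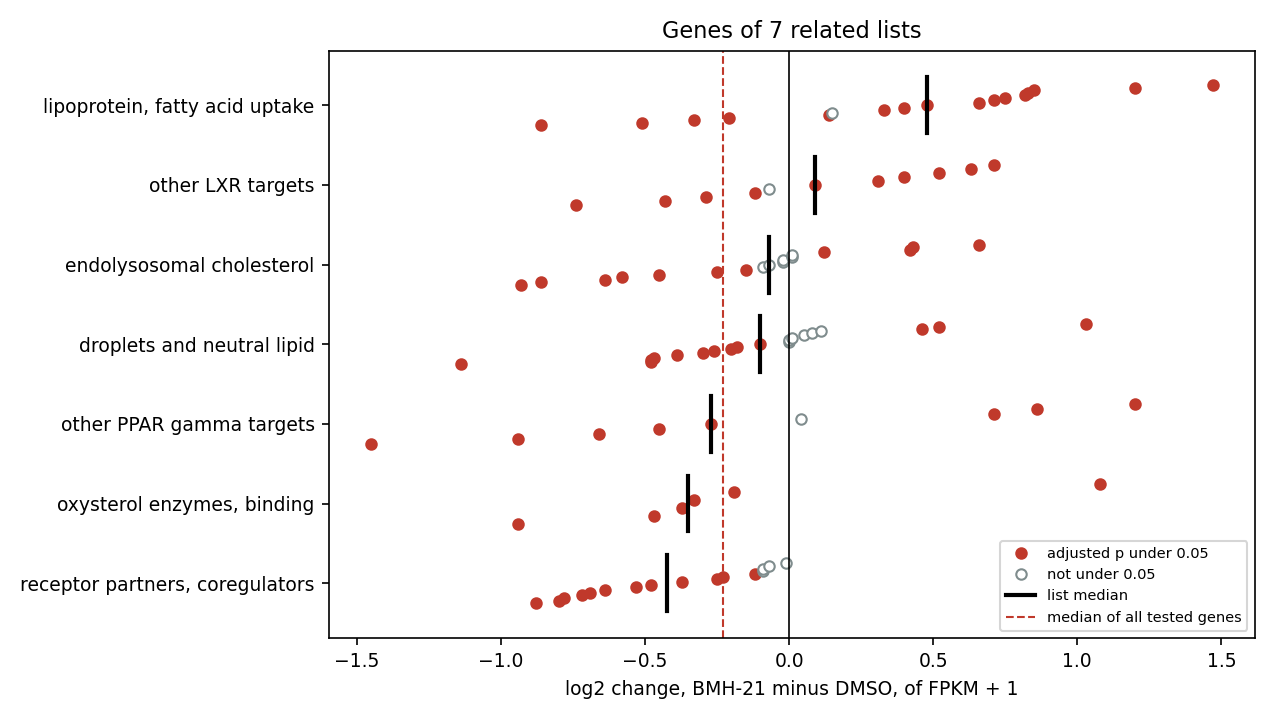
Log2 change of FPKM + 1, BMH-21 minus DMSO, of each tested gene in 7 related lists, with called genes in red and the others open. Black bars are list medians, from 0.48 for uptake genes to -0.42 for receptor partners and coregulators, and the dashed line is the median of all tested genes at -0.23; several genes stand in more than 1 list.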

How the data were processed

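RNA from polysome fractions was sequenced in 6 libraries. The deposited table holds, per gene, values read as FPKM from their size and steps, a unit not named per the labels, with replicates kept apart. The submitters' processing notes name the tools Trimmomatic 0.38, HISAT2 and SAMtools and the build mm10. Which tools counted and normalized, and on which annotation, is not given in the sources used here. An FPKM value is a share of its library, and unfractionated RNA was not used here.

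Values were tested as log2(FPKM + 1) in limma 3.58.1 (R 4.3.3; empirical Bayes with a trend on level) for the 9748 genes (50.7%) that reached 1 FPKM in 3 or more libraries, with Benjamini-Hochberg adjustment at 0.05. Low genes and within-library ratios had exact permutation tests. Depth was estimated from low values of single-transcript genes, of which 64.5% to 68.3% fell within 0.01 of a whole read count, at most 20, too few to recover counts. Numbers of reads behind a gene are therefore approximate.

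Nothing in the labels ties replicates to separate cultures; the p-values thus reflect the spread of these libraries alone, possibly technical. As the extracted molecule, DMSO replicate 2 is listed with polyadenylated RNA and the other libraries with total RNA, though one oligo-dT kit served all. Same-numbered libraries were not treated as paired, because the labels do not say that a number marks a shared culture. Correlations of deviations from the group means were -0.1124, -0.0939 and -0.0638 for same-numbered libraries and 0.0046 to 0.0969 for the others. Because deviations of 3 libraries sum to 0 within a group, these values cannot decide whether cultures were shared. The members, the 7 lists and the tests were chosen with earlier results of these data known. Named genes were all 10 members, the 4 genes of smallest p in each list, and the 3 genes most like Abca1. One gene so named is not reported here. Alternatives covered pseudocounts, filters, scalings, the trend, the replicate block and leaving out libraries. Promoter sequences are from RefSeq on GRCm38.p6.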

Additional observations from a re-analysis of the deposited data

How the results depend on the processing

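Over 16 other settings and 1 more chosen after seeing the data (DMSO replicate 3 as the lone control), the 8 tested genes gave 134 values, of which 115 kept direction and side of the threshold, 4 lost the call, 2 gained one with the sign kept and 13 changed sign. Of those 13, 5 also gained a call, 3 were called in both directions and 5 in neither. Sign changes were limited to Nr1h2, Lipa and Abcg1. With median-ratio, upper-quartile and quantile scaling, Nr1h2 stood at 0.28, 0.30 and 0.10, Lipa at 0.28, 0.30 and 0.09, and Abcg1 at 0.15, 0.17 and 0.12. Leaving out 1 library gave -0.02 to 0.00 for Nr1h2, -0.04 to 0.01 for Lipa and -0.15 to -0.11 for Abcg1. Other named genes gave 457 values, of which 453 kept direction and call, 4 lost the call and 0 changed sign.

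Counts moved with the scaling. With median-ratio, upper-quartile and quantile scaling, members called higher numbered 6, 6 and 5 (3 as deposited), all tested genes called higher 3744, 3893 and 3525 (1938) and lower 3386, 3242 and 3491 (5690), and the 91 other pathway genes 44, 46 and 40 higher (26) and 29, 29 and 26 lower (46). With equal column totals 5 members were lower, beside 6670 of all 9788 genes tested in that setting. With a minimum of 5 FPKM 3465 genes were lower, of only 6191 tested. Leaving out 1 library gave 3 members higher and 2 to 3 lower. The replicate block changed no member's call, with 3 higher and 3 lower and 1894 and 5608 of all genes. The log2 ratio of Nr1h3 to Nr1h2 differed by 0.50 to 0.61 with 1 library left out, and by 0.44 with a pseudocount of 1. That of Abca1 to Abcg1 differed by -0.18 to -0.01, and by 0.04 with a pseudocount of 1, which is larger than the Abca1 level. Depth limits Pparg most, at about 22 to 35 reads. Abca1 had about 95 to 150 reads and was left untested because it was under 1 FPKM.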

Other observations

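By Pearson's correlation of log2(FPKM + 1) over the 6 libraries, the tested genes whose pattern was most like that of Abca1 were Angel2 (r = 0.994), Rabep2 (0.991) and Polr3f (0.986). Each had its highest value in DMSO replicate 2 and its lowest in BMH-21 replicate 3, as Abca1 had. Angel2 ranged from 7.53 to 8.63 FPKM with BMH-21 and from 8.71 to 10.2 FPKM with DMSO. These are descriptions over libraries of only 2 groups, among 9748 genes searched.

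Of all 19233 genes, 6 were under 0.1 FPKM in DMSO replicates 1 and 2 and at least 1 FPKM in DMSO replicate 3 and every BMH-21 library, and 0 showed the reverse. The keratin genes Krt8 and Krt18, for example, stood at 3.60 to 4.22 and 6.41 to 8.89 FPKM with BMH-21, and at 0, 0.0236 and 3.27 and at 0, 0.0644 and 5.47 FPKM in DMSO replicates 1, 2 and 3. The osteoclast marker Mmp9 had 1.98 to 3.49 FPKM with BMH-21 and 0.153, 0.17 and 2.57 FPKM with DMSO.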
